A study of Mus musculus with 9 samples.

Results

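Esrp2, Prag1, Cadm4, Nkx2-4, Ism1, Hnf4a, Me3, Mn1, Eci3 and Tshb are 10 genes best known from tissues other than the thymus. They were chosen from the 11644 genes tested because their array signal rose steeply, from a dim or low level in control thymocytes, in thymocytes carrying active β-catenin but not yet transformed. The choice used the signal of the control and pre-transformed arrays, so that rise is given here as a description, with no test. Apart from the filter on dim signals, the choice did not use the signal in tumours, the other probe sets of the same genes, the genes around them or the sequence at their starts. The 10 genes have 18 probe sets that name a single gene, of 34945 such probe sets on the array, and 11 of the 18 passed the filter on dim signals, at least 1 for each gene. That filter counted all 9 arrays, and Hnf4a and Ism1 passed it only with their tumour arrays.

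RNA of 9 C57Bl/6 mice was read on 1 oligonucleotide array per mouse. All 9 mice carried the R26NC/NC genotype. The 2 control mice were CD4Cre- and aged 6 weeks, and their CD8+CD4+ (double-positive, DP) thymocytes were sorted to a purity above 98%. The 3 pre-transformed mice were CD4Cre+, were named R26-βcat, had the same age and sort, and had thymi of normal size with many T cell clones. The 4 tumour mice were also CD4Cre+, were aged 28, 26, 23 and 21 weeks (tumours 1 to 4), and gave whole thymic tumours, not sorted, with at least 95% CD4+CD8+ cells. Cre under Cd4 control is active from the DP stage on, and no group carried Cre without the R26NC allele. Labelling started from 0.1 µg of RNA with an amplification step for sorted cells, and from 2.5 µg without one for tumours, so that age, sorting, labelling and transformation cannot be told apart in the tumour comparisons.

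β-Catenin is the transcriptional effector of canonical Wnt signalling: it enters the nucleus, binds TCF and LEF proteins on DNA and turns their target genes on. DP thymocytes depend on Tcf7 and Lef1 for their development, and lasting β-catenin activity at this stage leads to T cell lymphoma in mice. The 10 genes belong to other settings. Esrp2 is an RNA-binding protein that directs epithelial patterns of splicing, Hnf4a is a nuclear receptor of liver, gut and kidney, Nkx2-4 is a homeobox factor of the embryonic brain, and Mn1 is a transcriptional coregulator hit by translocations in leukaemia and meningioma. Cadm4 is an adhesion molecule of the immunoglobulin superfamily and Prag1 a pseudokinase scaffold that binds the Src inhibitor Csk. Ism1 (isthmin) and Tshb (the β subunit of thyrotropin) are secreted, Me3 is a mitochondrial malic enzyme, and Eci3 is an isomerase used in breaking down unsaturated fatty acids.

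Signal is the MAS5 intensity of a probe set, a linear value that the authors scaled to a trimmed mean of 100 on each array. A signal below the 65th percentile of its array (28.5 to 44.6 over the 9 arrays) is called dim here, and a fold against a group whose arrays are all dim is given as a lower bound, with the dim group set to that percentile. Group signals are geometric means, and SD and SE are on the log2 scale. DP markers were bright in both sorted groups, with 12 of 12 measured above the dim mark, and their summed signal was 31920 to 33573 in controls, 33999 to 36199 in pre-transformed cells and 13129 to 18442 in tumours. Ctnnb1, the β-catenin gene itself, had a signal of 2582 in controls, 2671 in pre-transformed cells and 3156 in tumours and was called in no comparison. Xist signal was 12.6 in pre-transformed mouse 1 and 11.8 in tumour 4, against 4086.5 to 5445.5 elsewhere, so the mice differed in sex. Of the markers of thymic epithelium, Foxn1, Psmb11, Krt5, Krt8 and Epcam were dim on every array, and 1 of 14 epithelial markers passed the dim mark in controls (Cldn4), 2 in pre-transformed cells (Cldn4 and Ccl25) and 1 in tumours (Ly75). In bulk RNA, fewer cells of a type and less RNA per cell cannot be told apart, and this holds for every value below.

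Before transformation, the arrays of all 10 genes stood clear of the controls, with every pre-transformed signal above both control signals. Among all genes tested, 36.3% had arrays that did not overlap between these groups (20.6% with the pre-transformed arrays higher and 15.6% lower), and limma called 1.63% (1.11% higher and 0.524% lower), but nothing is read from the 10 genes' count because the same arrays chose them. Their log2 differences were 2.63 to 4.79 and ranked 2nd to 49th of 11644. The size of those differences is set in part by how dim the controls were. Only Esrp2 was above the dim mark in the controls, so the label of a dim start fits the other 9 and a low start fits Esrp2. Ism1, Hnf4a, Me3 and Tshb were dim on every sorted array, and no fold is given for them. Ranked by bounded fold among the 4303 genes that allow one, Esrp2 stood 3rd and Prag1 6th, but Cadm4 stood 122nd, Mn1 239th, Eci3 558th and Nkx2-4 613th.

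**Figure D1:**
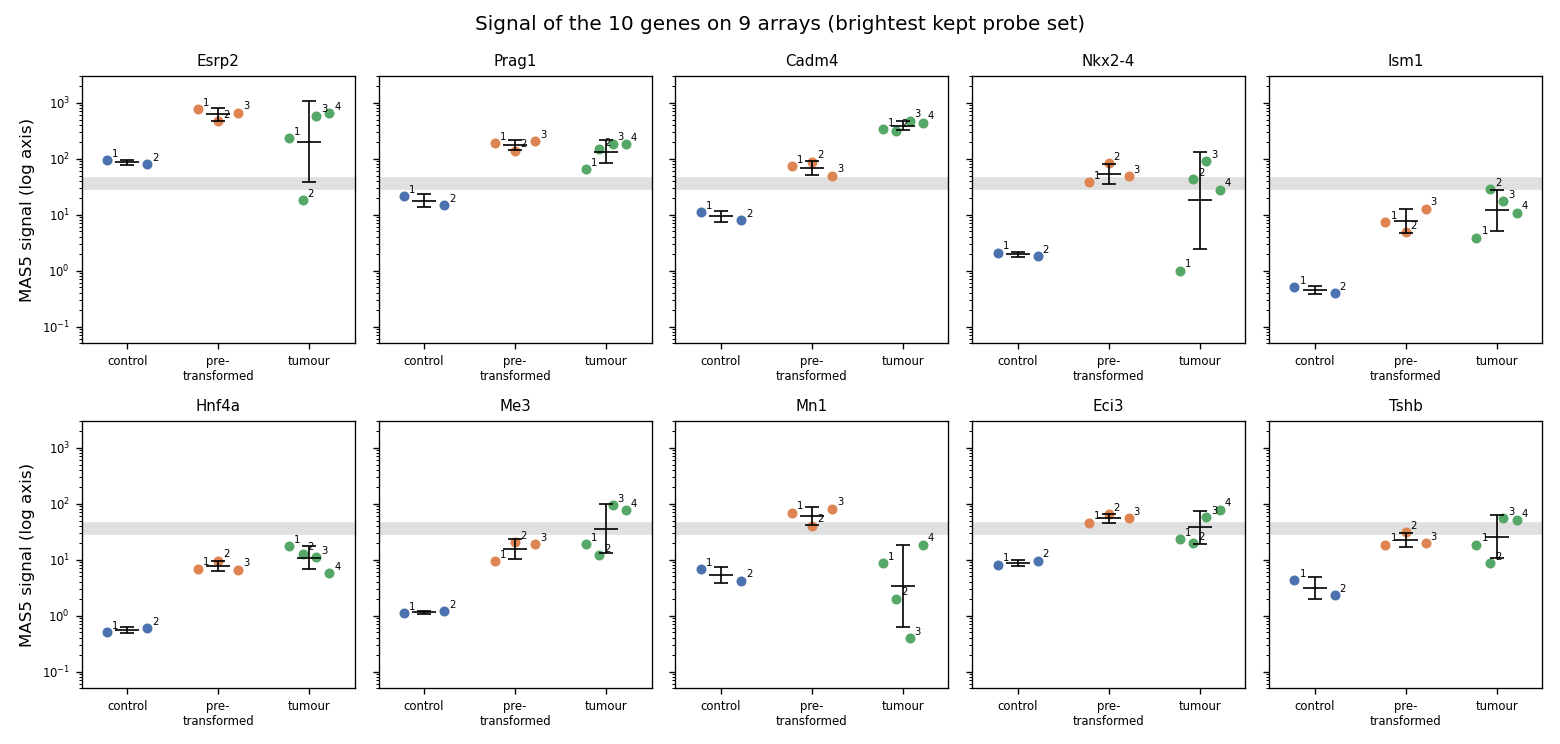
MAS5 signal (log axis) of the representative probe set of each of the 10 genes on the 9 arrays. Points are arrays numbered within their group, the bars are the geometric mean and 1 SD on the log2 scale, and the grey band is the range of the dim mark. All pre-transformed points lie above the control points, only Esrp2 starts above the band, and the tumour points of Esrp2, Nkx2-4 and Mn1 are spread the most (36-fold, 89.8-fold and 46.5-fold, with no allowance for dim signals).

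Esrp2 had the brightest rise of the transcription and splicing regulators. Its signal (probe set 1433683_at) was 93.3 and 80.3 in controls, 766.9, 465.2 and 664.1 in pre-transformed cells, and 235.5, 18.1, 586.5 and 651 in tumours 1 to 4. The group signals of 86.6 and 619 gave a 7.15-fold difference between control and pre-transformed cells, measured above the dim mark on both sides. Tumours 3 and 4 lay within the pre-transformed range, tumour 1 lay below it, and tumour 2 lay below both controls. The tumour mean of 201 differed from the pre-transformed mean by a log2 of -1.62 (SE 1.02) and from the control mean by 1.21 (SE 1.16), neither called (limma, adjusted p 0.202 and 0.411). For all 10 genes the choice took low controls and high pre-transformed arrays, which leans a test against controls towards a rise and one against pre-transformed cells towards a fall. Without tumour 2, the difference from controls was 2.37 and was called. That setting leaves out the 1 tumour below the controls, so nothing is read from the call. Tumour 2 was also the tumour with the least signal of other blood cells: its summed myeloid markers read 168, against 3215, 3409 and 3068 in tumours 1, 3 and 4 and 136 to 274 on sorted arrays, and the part of that in the Esrp2 signal was not tested. On sorted arrays the myeloid sums were 136 to 173 in controls and 161 to 274 in pre-transformed cells. Of 10 myeloid markers 1 passed the dim mark on an array in controls (Lyz2) and 4 in pre-transformed cells (Itgam, Lyz2, Csf1r and Cd68). Itgam, an integrin of myeloid cells, was the 1 marker of these called higher in pre-transformed cells (33 to 53.4, against 4.4 to 10.8 in controls). The other 9 were not called, and the median log2 difference of the myeloid list was 0.12. Adgre1 read 8.4 to 11.1 against 8.7 to 10.8 in controls, and S100a8 read 0.2 to 0.4 against 3.5 to 15.2. The part of myeloid cells in the rise of the 10 genes was not tested.

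A second Esrp2 probe set, 1419977_s_at, moved far less. It read 66.4 and 66.6 in controls and 99.7, 91.6 and 88.7 in pre-transformed cells, then 174.3, 66.6, 131 and 149.5 in tumours. The pre-transformed arrays were above the controls on both probe sets, but by very different amounts, and the array values do not show which transcripts each one reads. Esrp1, the close relative that shares the epithelial splicing role, was dim on all 9 arrays, with signals of 0.2 to 20. Cd44, whose variable exons are a known target of the ESRP proteins, had group signals of 61.3, 551 and 984 in controls, pre-transformed cells and tumours. These probe sets read total Cd44 and not its splicing.

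Nkx2-4 went from 2.1 and 1.8 in controls to 37.8, 83.7 and 49.2 in pre-transformed cells (probe set 1432863_a_at). This is the largest log2 difference of the 10 (4.79), but as a fold bounded by the dim mark it was at least 1.32-fold. In tumours it read 1, 43.5, 89.8 and 28, so that tumour 1 was at the control level and the other 3 were not. Tumours differed from controls by a log2 of 3.23 (SE 1.42), which missed the threshold (limma, adjusted p 0.0875). The difference was called with array weights and without tumour 1 (4.62). Leaving out the 1 tumour at the control level leans the test towards a call, so nothing is read from it. Its other probe set, 1432862_at, stayed at 0.9 to 4.1 on sorted arrays and 3.2 to 13.3 in tumours. The related homeobox genes Nkx2-1 and Nkx2-2 were dim on all arrays.

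Hnf4a was the dimmest regulator. Its representative probe set (1450447_at) read 0.5 and 0.6 in controls, 6.9, 9.6 and 6.6 in pre-transformed cells and 17.5, 12.7, 11 and 5.8 in tumours, all below the dim mark. It reached the median of its array on 2 tumour arrays and on no sorted array, so it passed the filter through the tumours, and no test against controls is given for it. The brightest of 15 bacterial control probe sets read 2.4 to 5 on the sorted arrays but 6.8 to 13.9 on those of tumours. Hnf4a was above it on all 3 pre-transformed arrays and in tumours 1 to 3, and below it in tumour 4. The other probe sets did not move together: 1427001_s_at read 1.4 and 1.9, then 16.6, 8.6 and 7.8, and fell back to 2.2 to 4.2 in tumours, whereas 1421983_s_at and 1427000_at read at most 1.2 in pre-transformed cells. Its relative Hnf4g was dim on every array.

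Mn1 was dim on every tumour array. Its signal was 6.8 and 4.2 in controls and 68.9, 40.2 and 80.9 in pre-transformed cells, then 8.7, 2, 0.4 and 18.6 in tumours (probe set 1454867_at). Every tumour lay below every pre-transformed array, and tumours 1 and 4 lay above both controls and tumours 2 and 3 below them. The log2 difference was -4.17, which the dim mark bounds at a fall of at least 1.69-fold. Mn1 reached the median of its array on 3 pre-transformed arrays and 1 tumour array. It thus passed the filter through the pre-transformed arrays, which also chose it for high signal, and no test against them is given. Against controls the tumours differed by -0.66 (SE 1.26, adjusted p 0.686), and this sign turned without tumour 3 (0.36). Raising every signal below a common floor to that floor made the difference from the pre-transformed level -0.50.

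**Figure D2:**
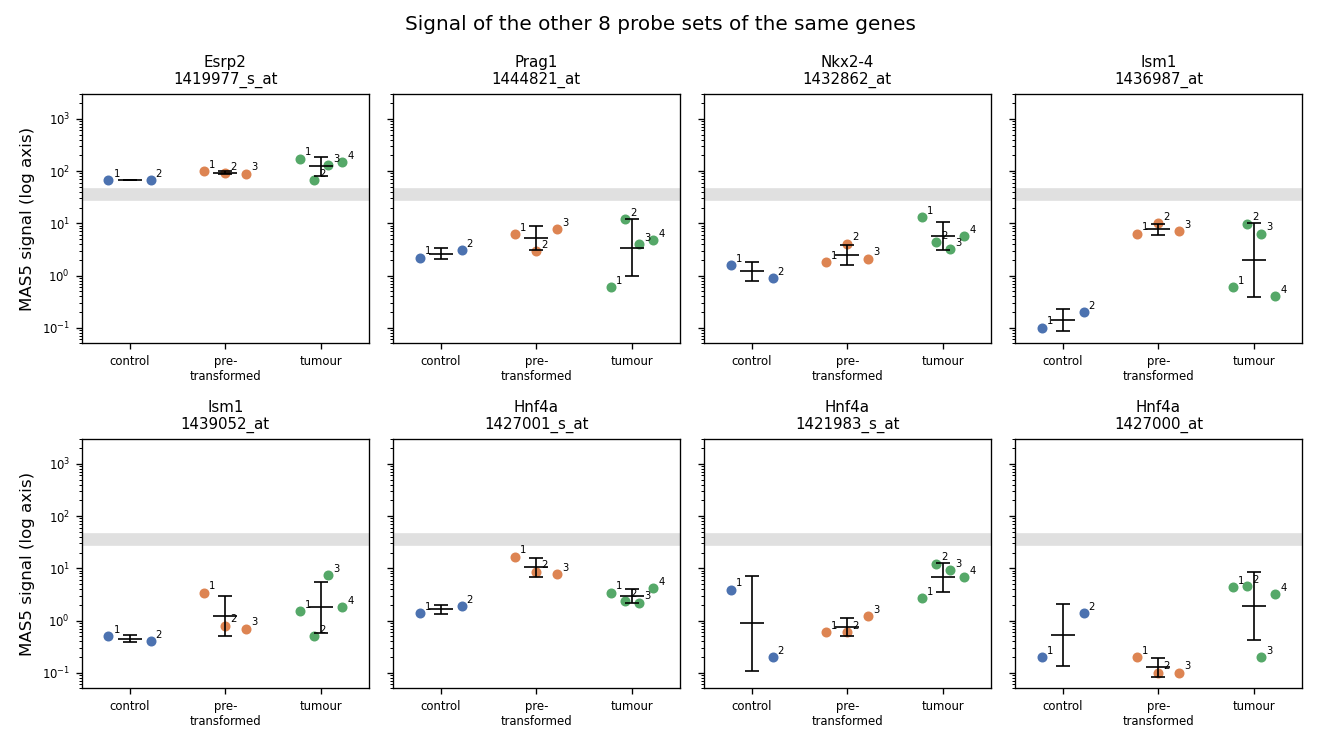
MAS5 signal (log axis) of the other 8 probe sets of Esrp2, Prag1, Nkx2-4, Ism1 and Hnf4a on the 9 arrays, with geometric mean and 1 SD on the log2 scale. Only Esrp2 1419977_s_at lies above the grey band of the dim mark. Nkx2-4 1432862_at, Ism1 1436987_at, Ism1 1439052_at and Hnf4a 1427001_s_at show every pre-transformed array above the controls at dim signal. Prag1 1444821_at, Hnf4a 1421983_s_at and Hnf4a 1427000_at do not.

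Cadm4 was the 1 gene of the 10 called higher in tumours than in pre-transformed cells. Its single probe set (1426263_at) read 11 and 8 in controls, 72.6, 88.2 and 49.7 in pre-transformed cells, and 339.4, 318.2, 478.7 and 439.7 in tumours. The 3 groups did not overlap, and the tumours varied less than for any other of the 10 genes (SD 0.28). Tumours were 5.69-fold above pre-transformed cells (log2 2.51, SE 0.26, limma adjusted p 4.85e-05) and at least 9.52-fold above controls (log2 5.37, SE 0.29, adjusted p 1.09e-05), in 4 of 4 tumours. Both calls held in all 21 other settings tried. The choice took low controls, which leans the call against controls towards a rise. Cadm1, a related adhesion molecule, had a signal of 9.29 in controls, 9.08 in pre-transformed cells and 42.6 in tumours, and was called higher in tumours against both (adjusted p 0.000701 and 0.00239). Cadm3 was dim on all arrays.

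Prag1 kept its pre-transformed level in most tumours. Its signal (1442434_at) was 21.3 and 14.6 in controls, 191.1, 138.7 and 206 in pre-transformed cells, and 65.4, 146.9, 186 and 179.6 in tumours. Tumours 2, 3 and 4 lay within the pre-transformed range and tumour 1 below it. Tumours were at least 3.28-fold above controls (log2 2.92, SE 0.41, limma adjusted p 0.000496), a call that held in all 21 other settings, and their difference from pre-transformed cells was -0.40 (SE 0.36, adjusted p 0.375). The choice of the genes leans the first test towards a rise and the second towards a fall. A dim second probe set read 2.2 and 3.1, then 6.2, 2.9 and 7.8. Peak1, its partner pseudokinase, had group signals of 127, 116 and 75.4 and was called in no comparison.

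The secreted genes stayed near the background. Ism1 (1436988_at) read 0.5 and 0.4 in controls, 7.3, 4.9 and 12.8 in pre-transformed cells and 3.9, 28.3, 17.4 and 10.9 in tumours, dim on all 9 arrays. A second probe set, 1436987_at, followed it in sorted cells (0.1 and 0.2, then 6.3, 10 and 7.1), and the last, 1439052_at, read 3.4, 0.8 and 0.7 in pre-transformed cells against 0.5 and 0.4. Tshb (1450371_at) read 4.3 and 2.3 in controls, 18.6, 31 and 19.5 in pre-transformed cells and 18.5, 8.6, 54.6 and 51.3 in tumours, above the dim mark in tumours 3 and 4 alone. Cga, which encodes the α subunit that thyrotropin needs, was dim on all 9 arrays. All 4 tumours were above both controls for both genes. However, Ism1 in tumours 1 and 4 was below the brightest bacterial control probe set of its array (9.2 and 13.9). That probe set read 6.8 to 13.9 on tumour arrays and 2.4 to 5 on sorted ones. For Ism1 both sides were dim, and no test is given. For Tshb the log2 difference from controls was 3.04 (SE 0.73, limma adjusted p 0.00783), a call lost with the common floor and without control 2. These controls also chose Tshb for low signal, which leans the call towards a rise.

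The enzymes Me3 and Eci3 differed between tumours in the same way as Tshb. Me3 (1429071_at) read 1.1 and 1.2 in controls, 9.5, 20.8 and 18.7 in pre-transformed cells and 18.8, 12, 94.5 and 76.4 in tumours. Eci3 (1451588_at) read 8.1 and 9.6, then 45.6, 64.4 and 54.9, then 23.3, 19.7, 58 and 78.5. Eci3 was thus above the dim mark on all 3 pre-transformed arrays, at least 1.33-fold over controls. Tumours were called higher than controls for Me3 (limma, log2 4.96, SE 0.83, adjusted p 0.00118) and Eci3 (2.11, SE 0.54, adjusted p 0.0104), in 4 of 4 tumours each. The same control arrays chose both genes for low signal, which leans these calls towards a rise. Both calls were lost with the common floor, and that of Eci3 also without either control. Me3 was not called against pre-transformed cells (limma, adjusted p 0.184), but was called higher without tumour 2, the lowest tumour. Nothing is read from that call. The other malic enzymes were Me1, at 8.15, 12 and 39.1 with a signal of 299.1 in tumour 4, and Me2, whose probe sets disagreed. The brightest was called higher in tumours (339) than in pre-transformed cells (205, adjusted p 0.00447) and controls (189, adjusted p 0.00535), and another followed it (59.2, 56.3 and 98.9), but the remaining pair had lower means in tumours (85.8, 128 and 42.7, and 58.2, 97.7 and 33.6). Eci2, which lies beside Eci3, had signals of 832, 1089 and 752, and Eci1 had 51.3, 36.5 and 15.

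Over the 10 genes, tumours against pre-transformed cells gave 1 call higher (Cadm4), 1 lower (Mn1) and 8 not called, whereas 54.9% of all genes tested were called (23.9% higher and 31% lower). Mn1 passed the filter only through the pre-transformed arrays, so nothing is read from its call. Arrays did not overlap for 2 of 10, 1 in each direction, against 57% of all genes (24.8% higher and 32.1% lower). The median log2 difference was -0.09, beside -0.12 over all genes. A difference that missed the threshold does not show an equal level: the SE of the 8 others was 0.36 to 1.25. Against controls, limma called 7 of 10 higher (20.5% of all genes were) and 0 lower (25.2% of all genes), where 45.7% of all genes were called either way, and 0 of the 10 were lower at an unadjusted p under 0.05 in limma. The 7 include Ism1 and Hnf4a, which were dim on all 9 arrays and whose tests against controls are not given above. A stricter filter, at or above the dim mark on at least 2 arrays, left these genes out, and 5 were called higher. With the common floor 2 of the 10 were called higher, Cadm4 and Prag1. Arrays did not overlap for 7 of 10, all higher, against 60.5% of all genes (27.4% higher and 33.1% lower). Their median was 3.13, beside -0.08 over all genes. The genes were chosen for low signal on these same control arrays, so the calls, the p values and the median all carry the choice, and nothing about the 10 genes is read from their distance to all genes.

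The SD between tumours was 2.87 for Nkx2-4, 2.45 for Mn1 and 2.41 for Esrp2. These values rest in part on dim signals, since Mn1 was dim in 4 tumours, Nkx2-4 in 2 and Esrp2 in 1 (tumour 2). It was 0.67 to 1.47 for Prag1, Ism1, Hnf4a, Me3, Eci3 and Tshb, and the median gene had 0.42 (0.50 among the 7538 genes in the same range of signal). The brightest tumour exceeded the dimmest 89.8-fold for Nkx2-4, 46.5-fold for Mn1, 36-fold for Esrp2 and 1.5-fold for Cadm4, with no allowance for dim signals. Among pre-transformed mice the SD of the 10 genes was 0.25 to 0.70, where the median gene had 0.19, and it was below the SD among tumours for 9 of the 10. Cadm4 was the exception (0.42 among pre-transformed mice and 0.28 among tumours).

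Tumours 3 and 4, from the younger mice (23 and 21 weeks), both lay above tumours 1 and 2 (28 and 26 weeks) for Esrp2, Prag1, Cadm4, Me3, Eci3 and Tshb. That is 6 of 10 genes, beside 24.2% of all genes tested, and tumour 2 was the lowest for 5 of the 6 (12.9% of all genes). The order was noticed after the values were seen and was not tested. The summed DP markers followed it (13129, 14157, 18442 and 17681 in tumours 1 to 4), as did the summed erythroid markers (44.8, 31.3, 76.8 and 80). Of the erythroid markers, Alas2 alone passed the dim mark on a tumour array. Myeloid markers were low in tumour 2 alone, and B cell markers read 5518, 248, 5300 and 1586. The part of these cells in the order was not tested. Nkx2-4, Ism1, Hnf4a and Mn1 each followed another order.

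**Figure D3:**
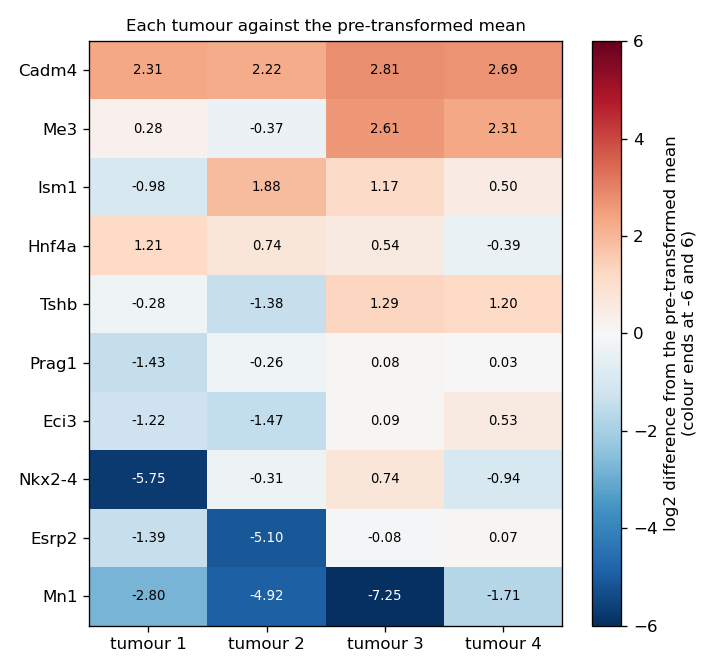
Log2 signal of each tumour minus the pre-transformed mean for the 10 genes (rows) in tumours 1 to 4 (columns), with red above and blue below the mean and the colours ending at -6 and 6. Cadm4 is red in all 4 tumours and Mn1 blue in all 4, Esrp2 is at -5.10 in tumour 2 and Nkx2-4 at -5.75 in tumour 1, and Me3 and Tshb are red in tumours 3 and 4.

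The genes most like each of the 10 were sought among all others over the 9 arrays. Likeness was the root mean square difference of log2 signal after centring each gene on its own mean, so that 0 is a perfect match. The closest of all was 1810019D21Rik to Esrp2 (0.41), followed by Tmem231 to Hnf4a (0.45), Dact1 to Eci3 and to Prag1 (0.50 and 0.52), Mixl1 to Cadm4 (0.54) and Sema3f to Tshb (0.55). Lpcat2 was nearest to both Me3 (0.64) and Ism1 (0.79). The nearest to Nkx2-4 and Mn1 were farther off (4930425O10Rik at 1.39 and E430016F16Rik at 1.23). Several of these matches rest on dim signal. In controls, pre-transformed cells and tumours, Tmem231 had means of 1.24, 10.5 and 17.1 and Lpcat2 of 0.49, 6.1 and 11.5. Those of 4930425O10Rik were 1.41, 19.2 and 16.3, also below the dim mark. Among the 10 themselves, Eci3 and Tshb were most alike (0.57) and Cadm4 and Mn1 least (3.55). All 9 arrays enter these values, including those that chose the genes.

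The companion of Esrp2 is also its neighbour. 1810019D21Rik is a long non-coding RNA on chromosome 8 whose span in the RefSeq annotation (GRCm38.p6) overlaps that of Esrp2 by 1794 bases. Its probe set read 16.1 and 15.4 in controls, 90.2, 80.8 and 150.1 in pre-transformed cells and 30.2, 4.2, 55.9 and 98.8 in tumours, so that tumour 2 was again the lowest and tumour 4 the highest. It rose at least 2.53-fold before transformation (log2 2.71, SE 0.28, limma adjusted p 0.00542). How far reads of one gene's transcripts reach the other's probe set was not tested. Hnf4a too has an overlapping non-coding gene, Hnf4aos, by 34911 bases. It was dim in all 3 groups (5.52, 9.95 and 13.7) and was called in tumours against controls alone (limma, log2 1.31, adjusted p 0.0425).

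The nearest tested gene on each side of the 10 was taken at any distance, so genes that were not tested may lie between. That gave 20 neighbours, and 4 of them were called higher in pre-transformed cells than in controls and 0 lower, where 1.11% of all genes were called higher. They were 1810019D21Rik and 3 others. Tspan2, a tetraspanin beside Tshb on chromosome 3, read 143.7 and 144, then 294.4, 370.4 and 307.4 (2.24-fold, log2 1.16, SE 0.13, limma adjusted p 0.00903), and 135.2 to 257.1 in tumours. Tasp1, the protease that cleaves MLL, beside Ism1 on chromosome 2, read 41.7 and 44.8, then 107.4, 131.2 and 95.9 (2.56-fold, log2 1.35, SE 0.18, adjusted p 0.0185), and went on to 1199.5, 162.7, 714.8 and 1362.6 in tumours. Cd93, a surface lectin-like receptor beside Nkx2-4 on chromosome 2, read 21.6 and 22.9, then 49.7, 53.5 and 42.7 (at least 1.19-fold, log2 1.12, SE 0.22, adjusted p 0.0495), and 4.1 to 22.6 in tumours. The neighbours' pre-transformed arrays lay above the controls for all 4, but the count rests on few arrays: it was 0 with the common floor, without a trend in the spread or with all 9 arrays in the fit, and 0 to 3 with 1 array left out. The other 16 neighbours were not called, among them the dim Fam217a beside Eci3 (0.2 and 0.7, then 4.3, 22.1 and 6.4) and Prss23 beside Me3 (0.1 and 0.1, then 0.7, 0.8 and 0.4), named for the size of their log2 differences. Here the median over the 20 was 0.36, beside 0.02 over all genes. In tumours against pre-transformed cells 5 neighbours were called higher and 6 lower, near the 23.9% and 31% of all genes. Against controls they were 6 and 3, beside 20.5% and 25.2% of all genes.

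**Figure D4:**
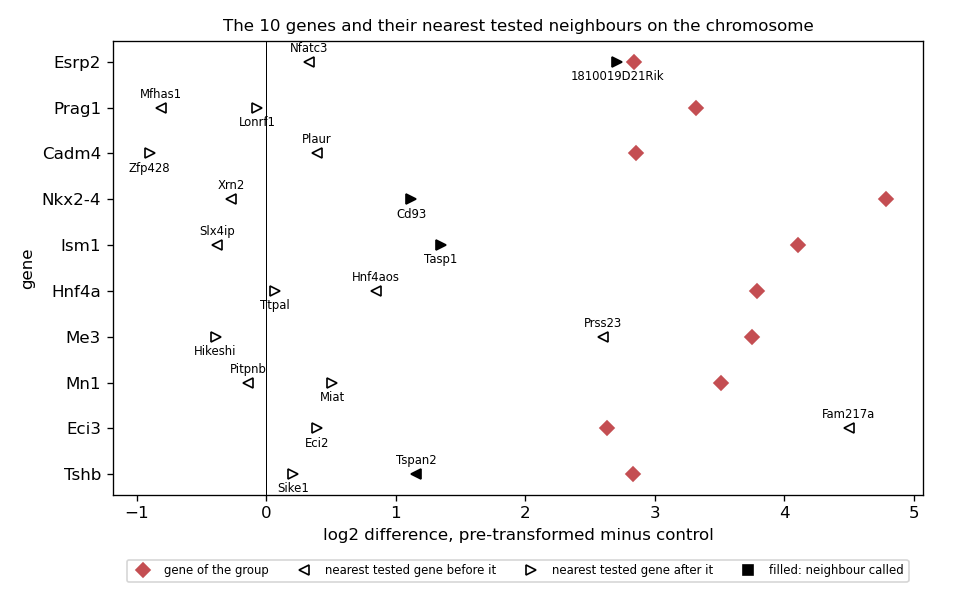
Log2 difference between pre-transformed and control signal for the 10 genes and for the nearest tested gene on each side, with the called neighbours marked. The 10 genes lie between 2.63 and 4.79, and 1810019D21Rik beside Esrp2 (2.71) is the only called neighbour in that range. Fam217a beside Eci3 and Prss23 beside Me3 also lie far to the right but were dim on the sorted arrays and not called.

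Sequences at the gene starts are shown for Cadm4, the non-coding neighbour that followed Esrp2, and Tshb, which has TATAAA just before its start. They run 5′ to 3′ over the 250 bases before the RefSeq start (GRCm38.p6), at chr7:24481773-24482022 on the plus strand for Cadm4, chr8:106135150-106135399 on the plus strand for 1810019D21Rik, and chr3:102782715-102782964 on the minus strand for Tshb. Capitals mark CG pairs in the first 2 and the letters TATAAA in Tshb.
Cadm4: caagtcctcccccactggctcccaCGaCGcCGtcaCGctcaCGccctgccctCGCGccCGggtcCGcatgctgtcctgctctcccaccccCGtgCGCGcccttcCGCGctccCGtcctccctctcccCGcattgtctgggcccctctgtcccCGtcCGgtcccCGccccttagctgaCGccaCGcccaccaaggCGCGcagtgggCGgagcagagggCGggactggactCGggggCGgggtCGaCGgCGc
1810019D21Rik: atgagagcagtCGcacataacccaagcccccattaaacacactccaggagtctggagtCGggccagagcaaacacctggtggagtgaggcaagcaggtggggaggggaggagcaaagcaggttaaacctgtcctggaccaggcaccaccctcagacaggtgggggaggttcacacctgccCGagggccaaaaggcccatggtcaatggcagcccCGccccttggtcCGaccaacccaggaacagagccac
Tshb: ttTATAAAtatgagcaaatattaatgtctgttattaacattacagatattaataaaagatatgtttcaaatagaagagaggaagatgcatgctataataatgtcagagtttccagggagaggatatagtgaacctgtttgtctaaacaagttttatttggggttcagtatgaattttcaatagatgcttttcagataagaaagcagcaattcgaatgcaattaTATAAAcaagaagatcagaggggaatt

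Cadm4 has a CG-rich start, with 30 CG pairs in these 250 bases, and Tshb an AT-rich one, where TATAAA begins 27 bases before the start. RefSeq windows of 300 bases (250 before to 50 after the start) were matched for 6 of the 10 genes, 7 windows in all, since Hnf4a has 2. They did not share a base composition: GC content was 77% in Cadm4, 68.3% in Nkx2-4, 62.7% in Me3, 56.7% in Eci3, 54% and 57.3% in Hnf4a and 32% in Tshb, beside a median of 52.7% over all windows. CG pairs numbered 40, 38, 15, 11, 4, 4 and 2 in the same order, beside a median of 7. The TCF/LEF letters CTTTGAA and CTTTGAT, searched on both strands, were in 0 of 7 windows, and 5.14% and 3.73% of 32851 windows held them. The HNF4 letters CAAAGTCCA, whose first 5 letters also occur in the reverse of the TCF/LEF letters, were in 0 of 7 as well (0.475% of all windows). TATAAA was in 1 of 7, beside 13.6%. A window without these letters says only that they are not in it.

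Few genes that work beside the 10 in their usual settings were called before transformation, at a share near that of all genes. A gene that was not called may still have moved. The 9 lists named 183 genes, of which 98 were tested: 2 were called higher in pre-transformed cells than in controls (2.04%, beside 1.11% of all genes) and 0 lower in limma, and the list median was -0.03. The 2 were Tjp3, a tight junction protein (37.9 to 78.5, at least 1.93-fold, log2 1.05, adjusted p 0.0326), and Pvr, a nectin-family receptor (584 to 911, 1.56-fold, log2 0.64, adjusted p 0.0273). Of 30 epithelial genes 12 were tested, of 32 liver and gut genes 4, and of 24 thyroid, pituitary and NK2 genes 9, so that most of these programmes were too dim to be tested at all. At an unadjusted p under 0.05, 9 of the 98 were higher and 9 lower.

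In tumours against pre-transformed cells, 27.6% of the 98 genes were called higher and 30.6% lower, close to the 23.9% and 31% of all genes tested, and the counts that follow describe each list with no test of a difference. Fatty acid oxidation, the pathway of Eci3, had 10 of 23 genes lower and 5 higher than in pre-transformed cells. Acadm, a medium-chain acyl-CoA dehydrogenase, went from 989.5 to 344 (log2 -1.52, limma adjusted p 4.02e-05), Pex5, the peroxisomal import receptor, from 237 to 44.9, and Ehhadh, the peroxisomal bifunctional enzyme, from 159 to 43.2. Among the 5 higher, Cpt1a went from 96.2 to 254. The malate and citrate route around Me3 had 7 of 18 higher and 4 lower. Those higher included Idh3a, from 354 to 1286 (limma, log2 1.86, adjusted p 0.000105), and Fh1, fumarate hydratase, from 564 to 1411. Among the 4 lower, Idh2 went from 357 to 68.6. Of 10 partners of Mn1, 5 were lower and 1 higher, with the coactivator Ncoa3 from 285 to 77.2 and Etv6, the partner of Mn1 in the leukaemic fusion, from 135 to 17.4 (at least 3.77-fold). Of 8 partners of Prag1, 3 were lower and 0 higher (0 higher at an unadjusted p under 0.05 in limma as well). Pag1, the adaptor that brings Csk to the membrane, fell from 1726 to 523 in all 4 tumours.

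Epithelial genes had 2 higher and 4 lower of 12. Spint2, a protease inhibitor, went from 3475 to 1671, and the tight junction genes Cldn4 from 66.2 to 6.03 and Tjp3 from 78.5 to 28.7. Adhesion genes around Cadm4 had 2 higher and 3 lower of 8, and Pvr, which had risen before transformation, fell to 188 (log2 -2.28, limma adjusted p 5.56e-05). Of 9 thyroid, pituitary and NK2 genes 4 were higher and 0 lower, and of 4 liver and gut genes 3 were higher and 0 lower (0 lower also at an unadjusted p under 0.05 in limma, in both lists). Among these, Dio1, the thyroxine deiodinase, went from 0.796 to 53.8 (at least 1.23-fold) and Apoa2, Mttp and Apoc3 stayed at or below a mean of 24.6. Most of these calls rest on dim signal. Nkx2-3, Hhex, Apoa2 and Apoc3 were dim on every pre-transformed and tumour array, and Pomc and Mttp allowed no bounded fold. Of 6 thrombospondin-repeat genes and isthmin receptors, 3 were higher and 1 lower.

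**Figure D5:**
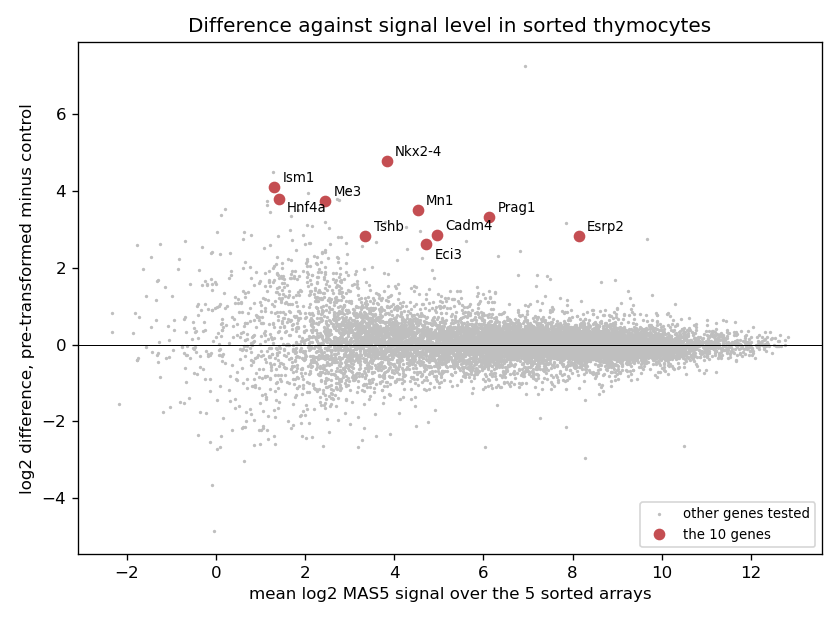
Log2 difference between pre-transformed and control signal against the mean log2 signal of the sorted arrays for all genes tested, with the 10 genes named. Large differences crowd at low signal, where Nkx2-4, Ism1, Hnf4a and Me3 lie, and Esrp2 and Prag1 combine a large difference with a bright signal.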

How the data were processed

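Per the labels, sorted DP thymocytes and thymic tumours gave biotin-labelled RNA for 1 array per mouse. The values deposited are linear MAS5 intensity, 1 per probe set and array. MAS5 is named, with no version, per the submitters' processing notes. Checked on the values, the mean of each array without its lowest and highest 2% was 100. Array medians were 9.9 to 15.2, and precision is limited by how few arrays each group has.

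Of 45101 probe sets, 64 controls were left out. The log2 of each signal was used, after 218 zeros were replaced by 0.1. Probe sets at or above their array's median on at least 2 arrays were kept (26421). The brightest kept probe set by mean stood for its gene, for 11644 genes in all. In the platform annotation 34945 probe sets named 1 gene, 932 several and 9160 none. Tests used limma 3.58.1 in R 4.3.3 (lmFit, eBayes with a trend). The fit of pre-transformed against control used those 5 arrays, and that of tumours all 9. Called means a p below 0.05 after Benjamini-Hochberg adjustment across the genes tested. The fits were tried on simulated data with the same spread in every group. The median SD here was 0.12 in controls, 0.19 in pre-transformed cells and 0.42 in tumours. That trial therefore does not cover unequal spread, and nothing is read from it. Sequences are from RefSeq (GRCm38.p6). Figures used matplotlib 3.10.9 in Python 3.11.15.

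The 10 genes, the lists and the tests were chosen with earlier results of these data known. Named are the 10 genes and all their probe sets, the closest genes by likeness, close paralogs, the nearest tested neighbours, up to 4 called genes of each list by smallest adjusted p, and Ctnnb1 and Cd44 as checks. Tjp3, Apoa2, Mttp and Apoc3 were named for the few calls they make up, and Cpt1a and Idh2 as calls in the other direction of their lists. The mice of a group are separate animals, and the same number marks unrelated mice across groups: deviations of same-numbered arrays correlated at -0.02 to 0.08. Alternatives were other filters, quantile normalization, median centring, offsets, the mean of probe sets, no trend, array weights, the replicate block, other arrays in the fit, each array left out and, added after seeing the data, a common floor.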

Additional observations from a re-analysis of the deposited data

Results flagged for a closer look

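Of the 18 probe sets of the 10 genes, Hnf4a 1427000_at had 1 tumour far from the others. Tumour 3 read 0.2, where tumours 1, 2 and 4 read 4.4, 4.5 and 3.2, and its gap on the log2 scale exceeded Dixon's 95% critical value for 4 samples. Chance alone marks about 1 in 20 groups. All 4 signals are below the brightest bacterial control probe set of the same array.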

How the results depend on the processing

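Tumours against pre-transformed cells gave 6392 calls over all genes, and 5124 to 6551 with 1 array left out. Cadm4 and Mn1 were the calls among the 10 genes: the number higher was 1 to 2 with 1 array left out (Me3 added without tumour 2), and the number lower was 0 with the common floor. Tumours against controls gave 5323 calls, and 2589 to 5703 with 1 array left out (2589 without control 1, 3168 without control 2). Of the 10 genes 7 were called higher, 5 with the stricter filter, 2 with the common floor and 5 to 8 with 1 array left out. Pre-transformed cells against controls gave 190 calls, 74 with no filter, 18 with the common floor, 1 without a trend, 431 with array weights, 6 with all 9 arrays fitted and 18 to 291 with 1 array left out. The 4 neighbours called higher became 0 with the common floor, 0 without a trend, 0 with all 9 arrays and 0 to 3 with 1 array left out. Signs turned for Mn1 against controls (0.06 with an offset of 16, 0.36 without tumour 3, and -1.48 to 0.36 over the arrays left out), Eci3 against pre-transformed cells (0.01 with the common floor) and Tshb against pre-transformed cells (-0.05 with median centring, -0.12 with the replicate block, -0.15 without tumour 3, -0.12 without tumour 4, and -0.15 to 0.73 over the arrays left out). They also turned with the mean of probe sets for Dlg1 (0.01 and 0.07) and Shc1 (0.23). The cause was not tested. Centring each array on its median moved the median gene from -0.12 to -0.38 in tumours against pre-transformed cells (2785 higher and 3607 lower became 1877 and 4279), from -0.08 to -0.46 against controls (2387 and 2936 became 1253 and 4132) and from 0.02 to -0.11 before transformation (129 and 61 became 77 and 113). The replicate block gave 6071, 5072 and 148 calls in the 3 comparisons and 1 higher, 1 lower and 7 higher among the 10 genes, as before; the arrays share only a number, not an animal. Dim signal limits Ism1, Hnf4a, Me3 and Tshb most, which were below the dim mark on every sorted array.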
